A study of Mus musculus with 11 samples.

Results

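Of the 22180 mouse genes with a single symbol on the array, 86 (0.388%) were high on all 8 arrays of cells undergoing reprogramming and lower at both ends of that process. Where a gene had several probe sets, the one with the highest mean on the 11 arrays stood for it. It was a member where its lowest intensity over the 8 reprogramming arrays was at least 2 times the higher of the values in fibroblasts (MEF) and embryonic stem cells (ESC). The fold was met by 88 genes, and Klf4 and 1 gene with a Serpin symbol were then left out. No symbol with a Krt, Snor, Mir or Gm prefix met the fold, and Nt5e did not meet it. The genes were thus chosen by the intensities of the reprogramming, MEF and ESC arrays, so that contrast is described here and carries no test. The genes were called transiently high because of that contrast, and no time point after day 9 was measured.

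Reprogramming cells were taken at days 9 and 6 as CD49d+, CD73+, CD73- or unsorted cells, which makes 8 arrays. All came from Rosa-rtTA+/- mouse embryonic fibroblasts infected with tetO viruses for Klf4, Oct4, Myc and Sox2 and given doxycycline, which switches the viral genes on through rtTA. Day 0 was the first day of doxycycline. The sorted cells were sorted for CD73 or CD49d and then sorted again. Cells with CD49d or CD73 are named poised in the labels. Control arrays held SC4, a partially reprogrammed line grown in the fibroblast medium with more serum, the Rosa-rtTA+/- fibroblasts (MEF) and V6.5 embryonic stem cells (ESC) grown with LIF. MEF carried the activator, and the labels name no virus for them. There is 1 array for every group and no replicate, and the labels do not tell whether days 9 and 6 come from separate cultures. In bulk RNA of this kind a lower value can mean fewer cells that use a gene or less RNA in each of them, and these cannot be told apart.

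Reprogramming factors turn fibroblasts into pluripotent cells over many days. Fibroblast genes are switched off early, many cells take on epithelial features, and the network around Nanog and Esrrb is switched on late and in few cells. Along the way cells use genes that belong neither to the fibroblast nor to the stem cell, among them genes of skin, nerve and other lineages. CD73 is an enzyme of the cell surface that makes adenosine, CD49d is the alpha 4 integrin chain, and both have served to enrich intermediates of this process.

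The arrays carried the labelled cells by their markers. Nt5e, which encodes CD73, had intensities of 2704 to 3658 on the poised arrays and 292 and 332 on the CD73- arrays. Itga4, which encodes CD49d, had 1588 and 1859 in CD49d+ cells, against 1206 and 1082 in CD73+ cells at days 9 and 6. The 20 fibroblast markers summed to 22883 to 44809 on the reprogramming arrays and 19378 in SC4, against 105413 in MEF and 26971 in ESC. The 15 stem cell markers summed to 2326 to 3789 on the reprogramming arrays, with 8 of the markers at the floor throughout, against 4591 in SC4, 1700 in MEF and 38894 in ESC. The 10 macrophage and blood cell markers summed to 1446 to 1694 on the reprogramming arrays, where 1000 would mean all at the floor. They summed to 2486 in SC4, 1272 in MEF and 2206 in ESC. On all 8 reprogramming arrays 7 of them were at the floor, and Ptprc and Csf1r were so on all 11 arrays. Of the 3 tested in limma, Laptm5 was higher in poised than in CD73- cells, by 1.17 ± 0.115 log2 units (SE), and 0 were lower. The deposited intensities stop at a floor of 100, which held 52.1% to 54.3% of the probe sets of an array, so that a gene listed at 100 may lie anywhere below it.

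Promoters were examined because Klf4 was one of the 4 factors delivered and the genes were high together. RefSeq (GRCm38.p6) gave a window of 250 bases before to 50 after the start for 61 of the 86 genes. A KLF motif, GGGNGTG on either strand, was in 22 of these 61 windows (36.1%), against 31.7% of the windows of all 16990 named genes. The AP-1 motif TGANTCA was in 4.92%, against 7.35% of all windows. The octamer part TTTGCAT was in 6.56%, against 4.26%. The E-box CACGTG was in 4.92% against 8.2%, and the SOX motif CATTGTT in 1.64% against 3.35%, all on either strand. The member windows were richer in G and C, with a median of 63.0%, against 56.3% for all windows. The 5 windows shown belong to the 5 genes with the highest ratios over the controls, and capitals mark GGGNGTG or its complement. They are chr7:144738524-144738823 on the minus strand for Ano1, chr1:52727309-52727608 on the minus strand for Mfsd6, chr5:67607633-67607932 on the plus strand for Shisa3, chr13:30136240-30136539 on the plus strand for Mboat1 and chr4:45018359-45018658 on the plus strand for Polr1e, each printed 5′ to 3′ along its gene.
Ano1: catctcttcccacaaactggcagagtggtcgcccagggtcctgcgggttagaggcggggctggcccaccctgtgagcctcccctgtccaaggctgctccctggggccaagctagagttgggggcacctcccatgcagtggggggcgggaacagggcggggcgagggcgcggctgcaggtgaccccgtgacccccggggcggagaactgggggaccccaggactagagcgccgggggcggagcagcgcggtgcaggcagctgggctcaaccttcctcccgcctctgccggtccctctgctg
Mfsd6: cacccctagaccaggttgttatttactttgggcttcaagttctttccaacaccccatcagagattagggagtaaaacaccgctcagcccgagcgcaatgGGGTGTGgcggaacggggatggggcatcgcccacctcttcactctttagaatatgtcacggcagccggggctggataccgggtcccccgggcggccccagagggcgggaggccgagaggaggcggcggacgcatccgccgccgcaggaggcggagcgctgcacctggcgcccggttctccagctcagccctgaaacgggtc
Shisa3: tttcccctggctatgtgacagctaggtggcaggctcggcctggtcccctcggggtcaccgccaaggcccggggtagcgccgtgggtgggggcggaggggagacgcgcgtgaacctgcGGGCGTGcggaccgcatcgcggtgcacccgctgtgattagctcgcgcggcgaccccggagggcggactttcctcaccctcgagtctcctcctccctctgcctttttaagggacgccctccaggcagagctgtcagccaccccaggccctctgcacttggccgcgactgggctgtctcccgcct
Mboat1: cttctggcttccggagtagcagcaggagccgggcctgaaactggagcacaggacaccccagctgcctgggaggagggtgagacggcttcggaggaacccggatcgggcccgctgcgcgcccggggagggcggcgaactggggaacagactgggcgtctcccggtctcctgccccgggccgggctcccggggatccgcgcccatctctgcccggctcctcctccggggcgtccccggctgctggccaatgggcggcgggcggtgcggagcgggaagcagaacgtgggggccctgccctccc
Polr1e: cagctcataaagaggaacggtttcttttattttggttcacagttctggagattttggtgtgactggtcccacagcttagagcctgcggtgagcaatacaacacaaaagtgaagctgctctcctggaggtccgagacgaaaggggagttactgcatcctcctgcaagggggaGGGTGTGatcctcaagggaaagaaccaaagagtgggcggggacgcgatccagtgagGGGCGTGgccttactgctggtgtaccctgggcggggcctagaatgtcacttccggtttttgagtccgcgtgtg
The letters of the motif occurred 2 times in the Polr1e window and 1 time each in those of Mfsd6 and Shisa3. They did not occur in the Ano1 and Mboat1 windows, which says only that these letters are not there. A match is a description of the letters and not of binding.

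The genes differed widely in how far they stood above the controls. The ratio of the lowest reprogramming array to the higher control had a median of 2.41, was 3 or more for 25 genes and 4 or more for 11, and lay between 2 and 2.5 for 49. Just inside the threshold were Ankrd49 at 2.02, 1700048O20Rik at 2.01 and Dock9 at 2.00, and just outside it were Mtr at 1.999, Fam185a at 1.99 and Nkrf at 1.99. MEF lay at the floor for 16 of the 86 genes and ESC for 11. Both did for 6 (Ano1, Necab1, Arhgef33, Nrcam, St3gal6 and Popdc3), whose ratios are lower limits. ESC had the higher control value for 48 genes and MEF for 32. The median intensity of the 86 genes was 1107 and 1006 in CD49d+ cells at days 9 and 6, 1199 and 1093 in CD73+ cells, 960.2 and 938 in CD73- cells and 920 and 984 in unsorted cells. It was 666 in SC4, against 204 in MEF and 206 in ESC.

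**Figure D1:**
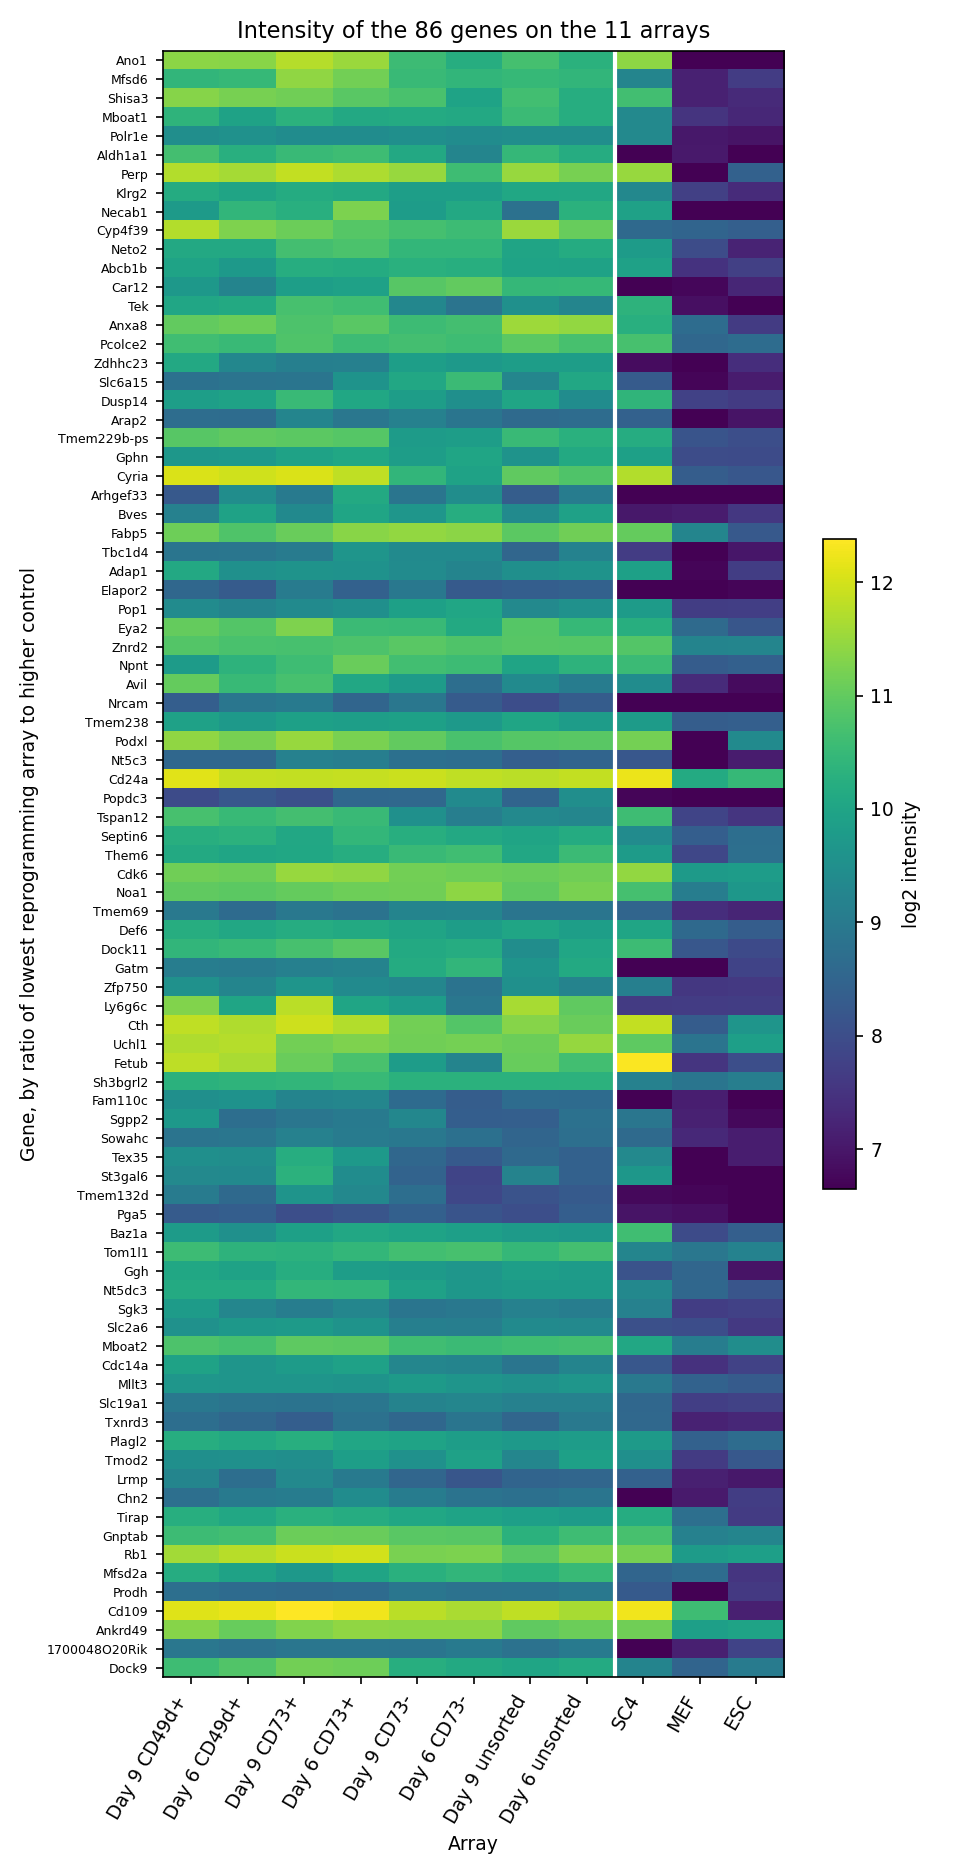
The log2 intensity of the 86 genes (rows, ordered by the ratio of the lowest reprogramming array to the higher control) on the 11 arrays (columns), with brighter colours for higher values. The 8 reprogramming arrays are left of the white line, MEF and ESC are the darkest columns, and SC4 holds both bright and dark rows.

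The channel gene Ano1 stood farthest from the controls. Ano1 (chromosome 7), which encodes a calcium-activated chloride channel, had intensities at days 9 and 6 of 2675 and 2629.8 in CD49d+ cells, 3432 and 2958 in CD73+ cells, 1537 and 1193 in CD73- cells and 1650.3 and 1277 in unsorted cells. SC4 had 2716, against the floor of 100 in both MEF and ESC, and the lowest reprogramming array was at least 11.9-fold above both controls. All 4 poised arrays lay above the CD73- and unsorted arrays, and SC4 lay among the poised ones. Mfsd6 (chromosome 1), a membrane protein of the major facilitator family, had intensities at days 9 and 6 of 1379 and 1444 in CD49d+ cells, 2769 and 2299 in CD73+ cells, 1474 and 1363 in CD73- cells and 1435 and 1377 in unsorted cells. SC4 had 611, against 145 in MEF and 204 in ESC, and the lowest reprogramming array was 6.7 times ESC. Here the pair of CD73+ arrays stood above the other 6, which were close to each other.

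The drug exporter gene Abcb1b, one of the mouse genes for P-glycoprotein, had a ratio of 4 and reprogramming intensities of 844 to 1251, with 978 in SC4. The other transport genes were Slc6a15 (neutral amino acids, ratio 3.26), Mfsd2a (lysophospholipids, 2.02), Slc2a6 (a glucose transporter family member, 2.15) and Slc19a1 (reduced folate, 2.1).

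Receptors, adhesion and matrix proteins made up the largest set, 16 of the 86 genes by roles assigned after the values were seen. Shisa3, known to hold back Wnt and FGF receptors, had intensities at days 9 and 6 of 2575 and 2369 in CD49d+ cells, 2241 and 1943 in CD73+ cells, 1709 and 1006 in CD73- cells and 1609 and 1187 in unsorted cells. SC4 had 1601, against 144 in MEF and 162 in ESC. Its lowest array, day 6 CD73-, was 6.23 times the higher control. Tek, the angiopoietin receptor of endothelial cells, had intensities at days 9 and 6 of 1055 and 1127 in CD49d+ cells, 1673 and 1583 in CD73+ cells, 633 and 459 in CD73- cells and 738 and 616 in unsorted cells. SC4 had 1299, against 117 in MEF and the floor of 100 in ESC. The 4 poised arrays lay above the rest of the reprogramming arrays, with CD73+ cells highest. The other 10 endothelial markers summed to 1081 to 1321 on the reprogramming arrays, where 1000 would mean all at the floor.

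Perp, a p53 target that is part of desmosomes, had intensities at days 9 and 6 of 3400.2 and 3125 in CD49d+ cells, 3734 and 3295 in CD73+ cells, 2914 and 1563 in CD73- cells and 2898 and 2349.6 in unsorted cells. SC4 had 2898, against the floor of 100 in MEF and 342 in ESC. The day 6 CD73- array was the lowest of the 8 and SC4 fell within their range. The remaining genes of this set included Klrg2, a lectin-like receptor (ratio 4.41), Neto2, an auxiliary subunit of kainate receptors (4.09), Podxl, a sialomucin (2.53), Cd24a, a small mucin-like surface protein (2.48), Npnt, a matrix ligand of integrin alpha 8 beta 1 (2.61), Cd109, a co-receptor that restrains TGF-beta signalling (2.02) and Pcolce2, an enhancer of procollagen processing (3.67).

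Lipid and glycan enzymes numbered 8. Mboat1, a lysophospholipid acyltransferase, had a ratio of 5.49, and its relative Mboat2 had 2.15. Cyp4f39, which hydroxylates very long fatty acids in skin, had intensities at days 9 and 6 of 3386 and 2467 in CD49d+ cells, 2169.7 and 1879 in CD73+ cells, 1660.1 and 1525 in CD73- cells and 2949 and 2115 in unsorted cells. SC4 had 391, against 358 in MEF and 334 in ESC. Its reprogramming values were 4.26 times the higher control or more, and SC4 was close to MEF and ESC. Fabp5, a fatty acid-binding protein of epidermis, had 1800 to 2801 on the reprogramming arrays. Of its 3 other probe sets, 2 met the same rule. The set also held Sgpp2 (sphingosine phosphate breakdown), St3gal6 (a sialyltransferase), Gnptab (the mannose phosphate tag of lysosomal enzymes) and Zdhhc23 (a palmitoyltransferase), with ratios of 2.3, 2.24, 2.05 and 3.31.

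Among the enzymes of small molecules, Aldh1a1, which makes retinoic acid from retinal, had intensities at days 9 and 6 of 1624 and 1238 in CD49d+ cells, 1474 and 1542 in CD73+ cells, 1103 and 608 in CD73- cells and 1424 and 1174 in unsorted cells. SC4 had the floor of 100, against 131 in MEF and the floor of 100 in ESC. All 8 reprogramming arrays thus stood above SC4 as well as above both controls. Car12, a carbonic anhydrase of the cell surface, had intensities at days 9 and 6 of 830.1 and 602 in CD49d+ cells, 935 and 979.9 in CD73+ cells, 1905 and 2042 in CD73- cells and 1426 and 1429.7 in unsorted cells. SC4 had the floor of 100, against 108 in MEF and 153 in ESC. For Car12 the order of the populations was turned round relative to Aldh1a1, with CD73- cells highest. Others were Cth (cysteine synthesis, ratio 2.33), Gatm (creatine synthesis, 2.36), Prodh (proline breakdown, 2.02), Ggh (folate polyglutamates, 2.19), Nt5c3 (pyrimidine nucleotides, 2.48) and Txnrd3 (a thioredoxin reductase, 2.09).

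Polr1e had the steadiest deposited values. It encodes a subunit of RNA polymerase I, which transcribes ribosomal RNA, and had intensities at days 9 and 6 of 710.1 and 754 in CD49d+ cells, 694 and 694 in CD73+ cells, 724 and 694 in CD73- cells and 719 and 712 in unsorted cells. SC4 had 651, against 129.8 in MEF and 123 in ESC. Its highest reprogramming array was 1.09 times its lowest, the smallest spread among the 86 genes, and it was 5.35 times the higher control at its lowest. The next smallest spreads were those of 1700048O20Rik (1.13), Sh3bgrl2 (1.14), Znrd2 (1.15) and Mllt3 (1.17), a reader of acetylated and crotonylated histones. Over all 86 genes the highest reprogramming array was a median of 1.74 times the lowest, at most 1.5 times in 25 genes and at least 3 times in 13. Widest were Ly6g6c (7.31 times), Fetub (5.99), St3gal6 (5.76), Necab1 (5.57), Avil (4.98) and Cyria (4.33). The deposited value of Polr1e was the same number, 694.385, in CD73+ cells at both days and in CD73- cells at day 6. Equal values on different arrays occurred for other members too, among them Mboat1 and Prodh. The origin of such equal values is not known.

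Cell cycle and chromatin genes included Rb1, the retinoblastoma protein that restrains entry into S phase, and Cdk6, a kinase that inactivates it. Rb1 had 1935 to 4064 over the 8 arrays, against 889 in MEF and 948 in ESC. Cdk6 had 2146 to 2878, against 869.9 in MEF and 897 in ESC. Regulators of small GTPases, switches of the cytoskeleton and of membrane traffic, numbered 9. They were Cyria, a Rac1 interactor, the exchange factors Dock9, Dock11, Arhgef33 and Def6, and the GTPase-activating Arap2, Adap1, Chn2 and Tbc1d4, with ratios between 2.00 and 3.22. Genes known from neurons were also present, among them Necab1 (calcium binding, ratio at least 4.4), Uchl1 (ubiquitin hydrolase, 2.32), Gphn (gephyrin, 3.09), Tmod2 (tropomodulin, 2.07) and Nrcam (adhesion, at least 2.56). Kinases, phosphatases and adaptors were Sgk3 (an AGC kinase, ratio 2.16), Dusp14 (a MAP kinase phosphatase, 3.24), Tirap (a Toll-like receptor adaptor, 2.07), Tom1l1 (endosomal sorting, 2.2) and Lrmp (2.07). Further members were Cdc14a (a cell cycle phosphatase, 2.14), Plagl2 (a zinc finger activator, 2.08), Noa1 (a mitochondrial GTPase, 2.39) and Septin6 (a filament GTPase, 2.43). Them6, Tmem69, Sowahc, Tmem132d, Pga5 and Nt5dc3 had ratios between 2.17 and 2.42, while Elapor2 had 2.91 and Tmem238 2.56.

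**Figure D2:**
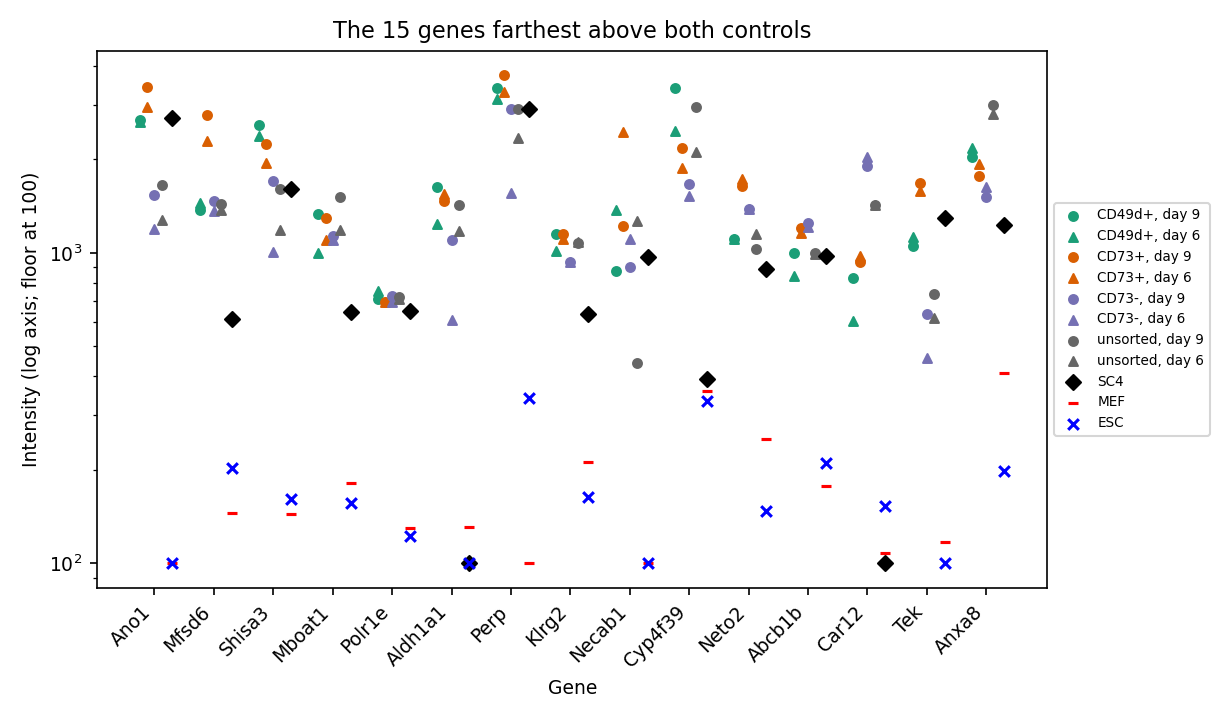
Intensity (log axis) of the 15 genes with the highest ratios, with CD49d+, CD73+, CD73- and unsorted cells as coloured points (circles for day 9, triangles for day 6), SC4 as black diamonds, MEF as red bars and ESC as blue crosses. The reprogramming points lie above MEF and ESC for each gene, Polr1e points nearly coincide, and SC4 is at the floor of 100 for Aldh1a1 and Car12.

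Poised cells were then compared with CD73- cells, as the study's design asks which genes mark the poised state. The genes were higher in poised cells more often than lower: 26 rose and 6 fell. Over all 13313 genes tested, 7.16% were called higher and 4.85% lower. Among the 8297 tested genes with at least 200 on all 8 arrays, a level that every member has by the rule, these shares were 6.97% and 5.17%. The test was limma on log2 intensities of the 8 reprogramming arrays with terms for population and day. A call needed a Benjamini-Hochberg adjusted p under 0.05 over all tested genes. The error is how far the difference between days varied among the 4 populations, unsorted cells included. The lowest of the same arrays chose the genes, so the test is not fully separate from the rule. The same limit holds for the comparisons of gates, of days and of sorted with unsorted cells below. The median difference was 0.14 log2 units over the 86 genes, against -0.01 over all tested genes. All 4 poised arrays lay above both CD73- arrays for 36 genes and below both for 14. These shares were 14.5% and 18.4% of all tested genes, and 15.4% and 22.7% of those with at least 200 on all 8 arrays.

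The largest rises were in Cyria and Fetub. Cyria had intensities at days 9 and 6 of 4247 and 3978 in CD49d+ cells, 4294 and 3656 in CD73+ cells, 1364 and 993 in CD73- cells and 2035 and 1782 in unsorted cells, with 3405 in SC4. Poised cells had 1.79 ± 0.0861 log2 units more Cyria than CD73- cells (SE, limma adjusted p = 0.00317), and the 4 poised arrays were well apart from the other 4. Fetub, a secreted protein of the cystatin family known from liver, had intensities at days 9 and 6 of 3595 and 3220.2 in CD49d+ cells, 2148 and 1712 in CD73+ cells, 907 and 600.3 in CD73- cells and 2128 and 1594 in unsorted cells. It differed by 1.79 ± 0.0973 log2 units (limma adjusted p = 0.00392). Poised and CD73- arrays did not overlap, whereas the day 9 unsorted array, at 2128, fell within the poised range.

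St3gal6 had intensities at days 9 and 6 of 646 and 666 in CD49d+ cells, 1292 and 696 in CD73+ cells, 354 and 224 in CD73- cells and 590.3 and 344 in unsorted cells. The poised arrays lay above the CD73- arrays, by 1.48 ± 0.203 log2 units (limma adjusted p = 0.0175). Tspan12, a tetraspanin that aids Frizzled4 signalling, had intensities at days 9 and 6 of 1671 and 1468 in CD49d+ cells, 1636 and 1473 in CD73+ cells, 737 and 553 in CD73- cells and 648 and 621 in unsorted cells. Its difference was 1.29 ± 0.0848 log2 units (limma adjusted p = 0.00476), and each poised array was above each other reprogramming array. Avil, an actin-binding protein of the villin family, had intensities at days 9 and 6 of 2099.8 and 1462 in CD49d+ cells, 1671 and 1083 in CD73+ cells, 892 and 422 in CD73- cells and 672 and 534 in unsorted cells. It differed by 1.32 ± 0.156 log2 units (limma adjusted p = 0.0124), with no overlap between poised and CD73- arrays.

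Others that rose at least 2-fold were Ly6g6c, a GPI-anchored Ly6 protein (1.41 log2 units), Tex35 (1.31), Tek (1.30), the pseudogene Tmem229b-ps (1.10) and Ano1 (1.10), with limma adjusted p between 0.00573 and 0.0258. Smaller rises included Aldh1a1 (0.84, limma adjusted p = 0.0497), Cth (0.80), Shisa3 (0.79), Eya2, a transcriptional coactivator (0.60), Rb1 (0.59), Cd109 (0.51), Podxl (0.47) and Zfp750, a regulator of epidermal differentiation (0.41). Mfsd6 also passed (0.41 log2 units), although its CD49d+ and CD73- arrays overlapped and only the CD73+ arrays stood apart. Perp differed by 0.66 log2 units and did not pass (limma adjusted p = 0.0711), with 4 of 4 poised arrays above both CD73- arrays.

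The 6 genes that fell in poised cells were Slc6a15, Car12, Gatm, Popdc3, Pop1 and Slc19a1. Slc6a15 had intensities at days 9 and 6 of 441 and 462 in CD49d+ cells, 472 and 768 in CD73+ cells, 1081 and 1504 in CD73- cells and 623 and 1087 in unsorted cells. It differed by -1.29 ± 0.16 log2 units (limma adjusted p = 0.0139), and the poised and CD73- arrays did not overlap. Car12 differed by -1.26 ± 0.132 log2 units (limma adjusted p = 0.0098). Gatm had intensities at days 9 and 6 of 537 and 522 in CD49d+ cells, 563 and 590.1 in CD73+ cells, 1155 and 1371 in CD73- cells and 785 and 1115 in unsorted cells. The difference was -1.19 ± 0.122 log2 units (limma adjusted p = 0.00935), and the unsorted arrays lay between the poised and the CD73- arrays. Popdc3, a cAMP-binding Popeye protein, fell by 0.80 on the log2 scale, Pop1, a subunit of RNase P and RNase MRP, by 0.58, and Slc19a1 by 0.36.

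Other genes that rose are given by array. Cth, which makes cysteine from cystathionine, had intensities at days 9 and 6 of 3663 and 3349 in CD49d+ cells, 3916 and 3367 in CD73+ cells, 2282 and 1842 in CD73- cells and 2578 and 2147 in unsorted cells, with 3687 in SC4. Each of its poised arrays lay above each other reprogramming array, and SC4 lay in the poised range. Tex35, named for its expression in testis, had intensities at days 9 and 6 of 728 and 703 in CD49d+ cells, 1199 and 859.9 in CD73+ cells, 379 and 311 in CD73- cells and 391 and 342 in unsorted cells. Its poised arrays were likewise above the rest. Rb1 had intensities at days 9 and 6 of 3097 and 3506 in CD49d+ cells, 3908 and 4064 in CD73+ cells, 2397 and 2426 in CD73- cells and 1935 and 2461 in unsorted cells, with the poised arrays above the others and CD73+ cells above CD49d+ cells. Dock9, an exchange factor for Cdc42, differed by 0.75 ± 0.0883 log2 units (limma adjusted p = 0.0124) and Fam110c by 0.90 ± 0.0956 (limma adjusted p = 0.0101). The others that passed were Lrmp, a membrane protein of lymphocytes (0.71 log2 units), Cyp4f39 (0.60), Slc2a6 (0.54), Nt5dc3 (0.49) and, smallest, Anxa8 (0.33).

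**Figure D3:**
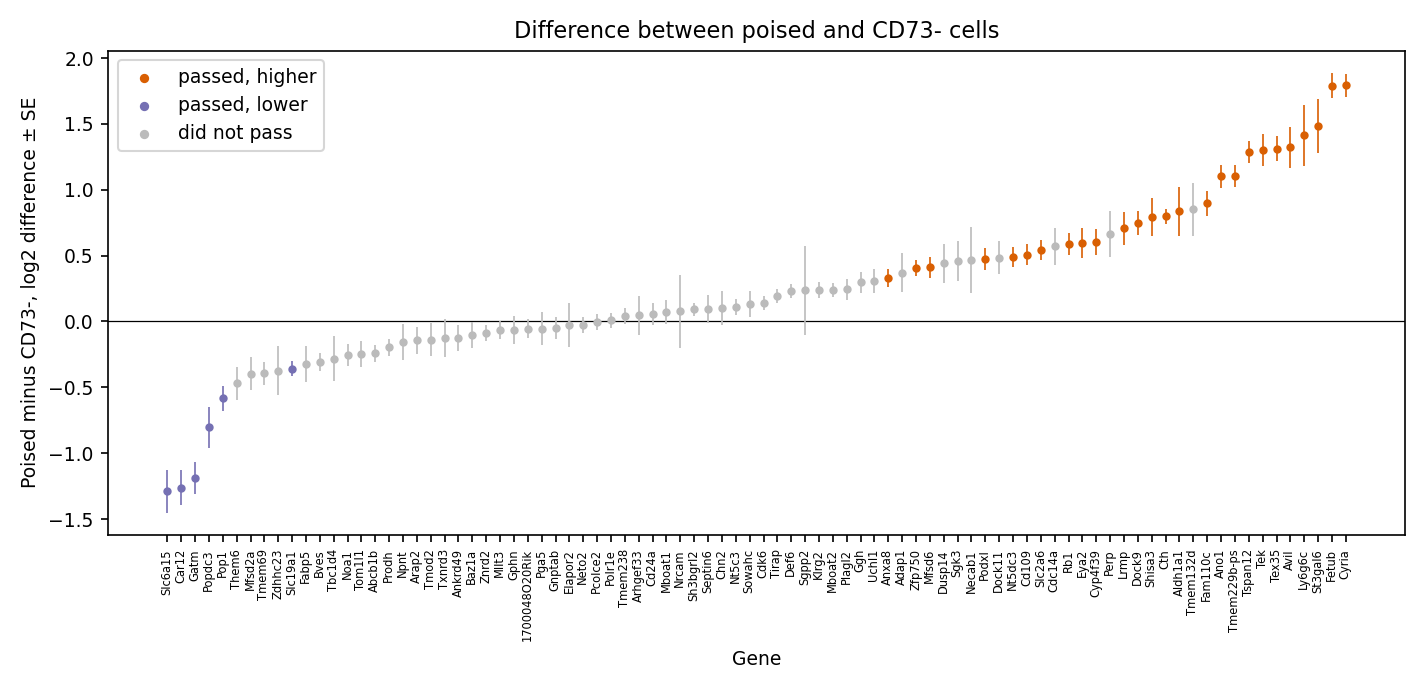
Difference between poised and CD73- cells (log2, points with SE bars from limma) for each of the 86 genes, ordered by size. Orange points passed as higher in poised cells (26), blue points as lower (6) and grey points did not pass, and Cyria and Fetub lie at the right end at 1.79.

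The count of 32 called genes rests on few arrays. Leaving out 1 array of day 9 gave 33 (CD49d+), 7 (CD73+), 7 (CD73-) and 18 (unsorted). Leaving out 1 array of day 6 gave 18 (CD49d+), 8 (CD73+), 3 (CD73-) and 0 (unsorted, with 48 at an unadjusted p under 0.05). Cyria, Fetub and Tspan12 passed in 7 of these 8 fits, Ano1, Cth, Tex35 and Tmem229b-ps in 5 and Tek and Fam110c in 4. The other 23 called genes passed in at most 3 fits. Of these, 11 passed in 1 (Cyp4f39, Eya2, Lrmp, Ly6g6c, Mfsd6, Nt5dc3, Podxl, Popdc3, Shisa3, Slc19a1 and Zfp750) and Aldh1a1 and Anxa8 in 0. The fibroblast marker sum was 22883 to 37996 on the poised arrays and 30771 and 26759 on the CD73- arrays, which overlap.

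The 2 poised gates were set against each other. CD49d+ minus CD73+ gave 0 called genes of the 86 (24 at an unadjusted p under 0.05 in limma), and 4 of all 13313 genes, 0.03%, passed. At that unadjusted p were also 3212 of all 13313 genes and 2325 of the 8297 with at least 200 on all 8 arrays. Nothing is therefore read from the 24. CD49d+ cells lay below CD73+ cells at both days for 43 of the 86 genes, against 28.3% of all tested genes, and above at both days for 12, against 34.8%. Of tested genes with at least 200 on all 8 arrays, 34.3% lay below and 34.2% above at both days. The count of 43 was 39 after quantile normalization, with 26.9% of such genes below, and 55 after centring each array on its median, with 42.3%. On a CD73+ array 43 genes had their highest value of the 8, against 23.2% of all tested genes and 25.4% of those with at least 200 on all 8 arrays. The gates also differed in fibroblast signal. For the CD49d+ gate the fibroblast marker sum was 27524 (day 9) and 37996 (day 6). For the CD73+ gate it was 22883 (day 9) and 25176 (day 6). The median difference of the 20 markers, CD49d+ minus CD73+, was 0.84 log2 units, and 0 of them were called. The rule asks for lower values in MEF, and the part of fibroblast signal in the order of the gates was not tested. Mfsd6 differed by -0.84 ± 0.0925 log2 units, Npnt by -0.77 ± 0.16 and Neto2 by -0.61 ± 0.0684, all lower in CD49d+ cells at both days. Npnt had intensities at days 9 and 6 of 882 and 1303 in CD49d+ cells, 1553 and 2162 in CD73+ cells, 1598 and 1527 in CD73- cells and 1021 and 1303 in unsorted cells. Fetub was higher in CD49d+ cells at both days, by 0.83 ± 0.112 log2 units. None of these passed (limma adjusted p between 0.0587 and 0.0785). Quantile normalization and centring each gave 8 called genes, 3 and 2 of them higher in CD49d+ cells. The calls over all tested genes in those settings are not given here, so the 8 are not read as few or many.

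Between the days, 20 of the 86 genes were higher at day 9 in all 4 populations and 11 were lower in all 4. Among all tested genes these shares were 8.14% and 9.22%, and among those with at least 200 on all 8 arrays 8.39% and 10.9%. Day 9 minus day 6 gave 0 called genes among the 86 (29 at an unadjusted p under 0.05) and 0.00% among all 13313 (1545 at that p) in limma, so each difference below missed the threshold. The 4 populations stand in for replicates of a day here. They are not independent replicates, as unsorted cells include the sorted kinds and each population has 1 array a day. Ly6g6c had intensities at days 9 and 6 of 2522 and 1041 in CD49d+ cells, 3548 and 1041 in CD73+ cells, 905 and 485 in CD73- cells and 3199 and 2015 in unsorted cells. SC4 had 199, against 202 in MEF and 207 in ESC. Ly6g6c was higher at day 9 in 4 of 4 populations, by 1.15 ± 0.188 log2 units (limma adjusted p = 0.17), although days overlapped across populations. Avil was higher in 4 of 4 populations by 0.64 ± 0.127 log2 units and Eya2 by 0.42 ± 0.093.

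The 11 genes lower at day 9 in all populations included Arhgef33, Necab1, Bves and Popdc3. Arhgef33, an exchange factor for small GTPases, had intensities at days 9 and 6 of 306 and 702 in CD49d+ cells, 513 and 1126 in CD73+ cells, 467 and 708 in CD73- cells and 325 and 531 in unsorted cells. The 4 day 9 arrays lay below the 4 day 6 arrays, by -0.91 ± 0.121 log2 units (limma adjusted p = 0.125). Bves, like Popdc3 a Popeye protein of muscle and epithelial cells, had intensities at days 9 and 6 of 578 and 993 in CD49d+ cells, 663 and 1035 in CD73+ cells, 803 and 1196 in CD73- cells and 672 and 976 in unsorted cells. It differed by -0.63 ± 0.0562 log2 units with no overlap of days (limma adjusted p = 0.093). Popdc3 had intensities at days 9 and 6 of 247 and 293 in CD49d+ cells, 264 and 377 in CD73+ cells, 386 and 669.7 in CD73- cells and 361 and 709 in unsorted cells, a difference of -0.63 ± 0.128 log2 units. Bves and Popdc3 are neighbouring coding genes on chromosome 10, and the third family gene, Popdc2, was at the floor on all 8 reprogramming arrays. Necab1 had intensities at days 9 and 6 of 875 and 1373 in CD49d+ cells, 1223 and 2451 in CD73+ cells, 901 and 1105 in CD73- cells and 440.4 and 1263 in unsorted cells, a difference of -0.87 ± 0.204 log2 units. Arhgef33 and Bves were the 2 members with all day 9 arrays below all day 6 arrays (0.819% of all tested genes), and Tmem238 was the 1 above (0.744%). The stem cell marker sum was 3080 to 3789 at day 9 and 2326 to 2806 at day 6, and its part in these differences was not tested.

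**Figure D4:**
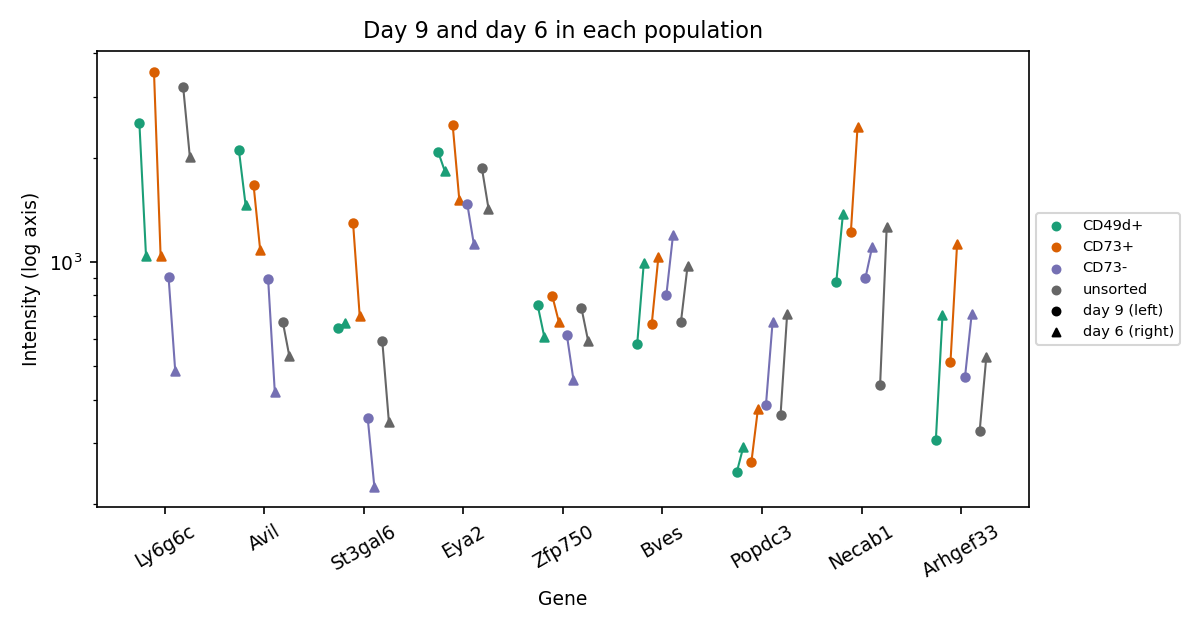
Intensity (log axis) at day 9 (circles) and day 6 (triangles) in CD49d+, CD73+, CD73- and unsorted cells for 9 genes, with a line joining the days of a population. Ly6g6c, Avil, Eya2 and Zfp750 are higher at day 9 in 4 of 4 populations, St3gal6 in 3, and Bves, Popdc3, Necab1 and Arhgef33 are lower in 4 of 4.

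Sorted cells (the mean of CD49d+, CD73+ and CD73-) were compared with unsorted cells of the same days. In limma 15 of the 86 genes were higher in sorted cells and 1 was lower, against 4.38% and 4.16% of all tested genes and 5.5% and 3.91% of those with at least 200 on all 8 arrays. The lowest of these 8 arrays chose the genes, and it was the day 9 unsorted array for 23 of the 86. The comparison is thus not fully separate from the rule. The largest rises were in Avil (0.92 ± 0.147 log2 units, limma adjusted p = 0.0334), Tspan12 (0.87 ± 0.0799, 0.0193), Tex35 (0.78 ± 0.091, 0.0231) and Dock11, an exchange factor for Cdc42 (0.74 ± 0.117, 0.033). Anxa8, an annexin of stratified epithelia, fell. It had intensities at days 9 and 6 of 2039 and 2175 in CD49d+ cells, 1770.3 and 1936 in CD73+ cells, 1519 and 1630.4 in CD73- cells and 2995 and 2793 in unsorted cells. Both unsorted arrays lay above all 6 sorted arrays, with a difference of -0.66 ± 0.0643 log2 units (limma adjusted p = 0.02). Ly6g6c differed by -0.996 log2 units and missed the threshold (limma adjusted p = 0.0567). The fibroblast marker sum was 22883 to 37996 on the sorted arrays and 44809 and 34894 on the unsorted arrays at days 9 and 6. Keratinocyte genes moved too: 16 of 37 tested were lower in sorted cells and 1 was higher. The 59 keratinocyte genes that are not members summed to 9230 to 11762 on the sorted arrays, against 16325 and 17575 on the unsorted arrays at days 9 and 6, with 30 to 36 of them at the floor on a sorted array and 25 and 24 on the unsorted ones. Sprr1a, a cornified envelope precursor, had 118 to 342 on the sorted arrays, against 1682 and 1853 on the unsorted arrays. The part of either marker list in the result, the fall of Anxa8 included, was not tested. Leaving out 1 array of day 9 turned the 16 calls into 7 (CD49d+) and 0 (CD73+, CD73- or unsorted), and leaving out 1 of day 6 into 4 (CD49d+), 0 (CD73+), 1 (CD73-) and 0 (unsorted). At an unadjusted p under 0.05 these fits held 24 to 45 of the genes.

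SC4 divided the genes. It is 1 array with no replicate, so its values carry no test, and its ratio to the controls shares MEF and ESC with the rule. SC4 had at least 2 times the higher control for 56 of the 86 genes (2.74% of all tested genes, 2.37% of those with at least 200 on all 8 arrays), between 1 and 2 times for 16, and no more than the higher control for 14. SC4 lay below all 8 reprogramming arrays for 43 of the 86 genes, against 18.7% of all tested genes and 23.7% of those with at least 200 on all 8 arrays. The genes were chosen for a high lowest value over those 8 arrays, which favours such an order, so nothing is read from these shares. SC4 lay within their range for 40 and above all 8 for 3. The last were Fetub at 5229, Cd24a at 4783 and Baz1a, a subunit of the ACF chromatin remodelling complex, at 1585. Fetub in SC4 was 20.1 times the higher control, and Ano1 at least 27.2 times.

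SC4 was at the floor for 8 genes, which were Aldh1a1, Car12, Gatm, Arhgef33, Fam110c, 1700048O20Rik, Elapor2 and Nrcam. The floor held 10.6% of all tested genes in SC4 and 0.554% of those with at least 200 on all 8 arrays. The median of the 8 reprogramming arrays was at least 13.3 times SC4 for Aldh1a1, at least 12.0 times for Car12 and at least 6.87 times for Gatm. Ly6g6c (median 7.69 times SC4), Zdhhc23 (7.78), Bves (6.86) and Cyp4f39 (5.47) were above the floor in SC4 and far below the reprogramming arrays.

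For the 26 genes called higher in poised cells, SC4 had at least 2 times the higher control for 19 and lay below all 8 reprogramming arrays for 9. Of the 6 called lower in poised cells, it had at least 2 times the higher control for 2, Slc6a15 and Pop1, and lay below all 8 for 5. For the 54 not called these counts were 35 and 29. The lowest of the 8 arrays sets whether SC4 lies below all 8, and that array depends on the poised difference. Nothing is therefore read from the counts below all 8. Across the 86 genes the poised difference and the log2 ratio of SC4 to the higher control had a Pearson coefficient of 0.474 and a Spearman coefficient of 0.367, against 0.225 and 0.0585 over all 13313 tested genes. Among tested genes with at least 200 on all 8 arrays the coefficients were 0.13 and -0.0231. These coefficients are a description across genes, which are not independent. The measures share no array, while the controls and the lowest of the 8 reprogramming arrays entered the rule. The choice of genes therefore acted on both measures. Ly6g6c, Aldh1a1 and Fam110c ran the other way, higher in poised cells and not above the controls in SC4.

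**Figure D5:**
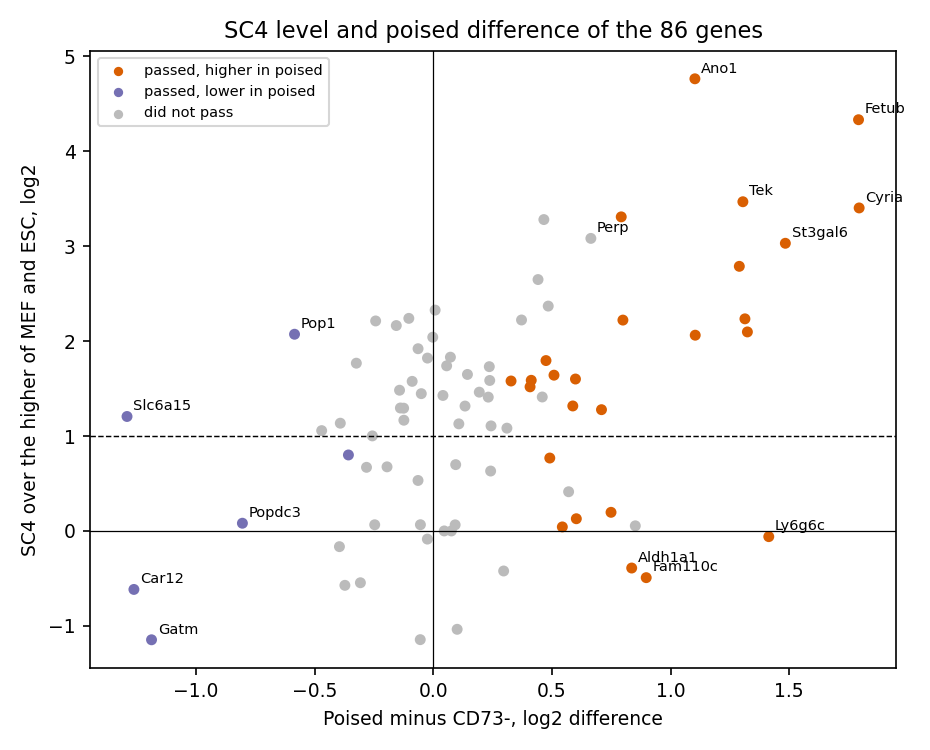
Log2 ratio of SC4 to the higher of MEF and ESC (vertical axis, dashed line at 2-fold) against the log2 difference of poised minus CD73- cells (horizontal axis) for the 86 genes. Orange genes passed as higher and blue as lower in poised cells, with Ano1, Fetub, Tek and Cyria at the upper right, Car12 and Gatm at the lower left and Ly6g6c, Aldh1a1 and Fam110c at the lower right.

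Some of the genes were on the pathway lists. Of 24 gene lists drawn up for this tissue and treatment, 10 genes were on at least 1. The lists were chosen with earlier results of these data known. Counts of list genes that rose or fell are therefore a description, and nothing is read from their distance to the shares over all genes. The share of all named genes on at least 1 list was not taken, so the count of 10 is not read as few or many. Keratinocyte genes held 2 of 61 on the array (Perp and Fabp5), neural genes 2 of 45 (Nrcam and Uchl1) and lipid metabolism genes 2 of 37 (Cyp4f39 and Fabp5). Calcium-binding genes held Anxa8, growth factor receptors Tek, glycolysis and hypoxia genes Car12, solute carriers Slc6a15, actin genes Avil and p53 genes Perp. No member was among the 39 pluripotency, 23 FGF-ERK, 41 epithelial junction or 132 ligand genes. The rule took 0.388% of all named genes, so lists of these sizes may hold no member, and nothing is read from this. In poised minus CD73- cells, 12 of 38 epithelial junction genes tested rose and 1 fell, 6 of 23 FGF-ERK genes rose and 2 fell, and 2 of 17 trophoblast genes rose and 6 fell. Of 37 keratinocyte genes tested 4 rose and 3 fell, of 36 neural genes 4 rose and 1 fell, and of 28 lipid genes 5 rose and 4 fell. The shares over all tested genes were 7.16% and 4.85%, and without the day 6 unsorted array 1 gene of all 13313 was called.

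One probe set stood for the gene in 78 cases and several were present in 8. Besides Fabp5, the other probe sets of Pop1, Tmem69 and Uchl1 were at the floor on every array, and those of Znrd2, Cd24a, Tom1l1 and Rb1 did not meet the rule. Protein-coding genes made up 84 of the 86. The exceptions were the pseudogene Tmem229b-ps, whose probes may also detect a related coding gene, and the noncoding RNA 1700048O20Rik.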

How the data were processed

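Total RNA of 11 cell samples, 1 array each, was measured on Affymetrix gene arrays, per the labels' protocols. The authors deposited linear intensity values for 41345 probe sets. The submitters' processing notes name Partek with no version. Background correction, summarisation and scaling between arrays are not stated in these sources. No scaling was added. Probe sets with 1 symbol in the platform annotation (23521) named 22180 genes, with symbols updated through RefSeq (GRCm38.p6), and 1814 with several symbols and 16010 with none were not used. The log2 of the deposited intensity was taken before testing. The filter on dim genes kept genes above the floor on at least 1 reprogramming array, 13313 in all.

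The 8 reprogramming arrays were fitted with lmFit and eBayes in limma 3.58.1 (R 4.3.3) on population and day, with 3 residual and 2.12 prior degrees of freedom, and p-values were adjusted by Benjamini-Hochberg over all tested genes. The fit was checked on simulated data. With 1 array a group, p-values measure only the spread between these arrays, and their number limits the precision. Alternatives were quantile normalization, median centring, no filter on dim genes, an intensity trend, no day term, the 6 sorted arrays only, other thresholds, the mean of a gene's probe sets and leaving out each array.

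The members and gene lists were chosen with earlier results of these data known. Genes named are the 15 with the highest ratio, members past the threshold with at least 1 log2 unit, up to 10 with the lowest and up to 10 with the highest SC4 relative to the reprogramming arrays, those at the floor in SC4, the 3 nearest the threshold on each side, members on a list and the 5 with the smallest range. Other genes were named after their values were seen, as examples of roles or of days.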

Additional observations from a re-analysis of the deposited data

Results flagged for a closer look

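For 4 of the 86 genes both poised populations moved one way against CD73- cells at day 9 and the other way at day 6. The difference between days was not tested. The share of all tested genes with such a turn was not taken, so the count of 4 is not read as unusual. For Septin6, CD49d+ minus CD73- was -0.0132 and CD73+ minus CD73- was -0.17 log2 units at day 9, against 0.23 and 0.33 at day 6. Pga5 had -0.11 for CD49d+ and -0.37 for CD73+ at day 9, against 0.24 and 0.0287 at day 6. For Chn2, a Rac GTPase-activating protein, the CD49d+ and CD73+ values were -0.33 and -0.0050 at day 9, against 0.15 and 0.59 at day 6. The noncoding RNA 1700048O20Rik had 0.0245 for CD49d+ and 0.00083 for CD73+ at day 9, against -0.17 and -0.0749 at day 6. Several of these values are close to 0, and the direction of such a value rests on 2 single arrays.

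Probe sets outside the named genes also met the fold of the rule, 22 of 16010 with no symbol and 4 of 1814 with several symbols, against 92 of 23521 with 1 symbol. No group holds enough arrays for a check of single outlying values.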

How the results depend on the processing

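The rule gave 83 genes after quantile normalization (80 of the 86 among them), 71 after centring, 83 with the mean of a gene's probe sets, 222 at 1.5 times and 25 at 3 times, and 86 to 107 when an array was left out. For poised minus CD73- the calls over all tested genes, 1599 in the main fit, were 1997 after quantile normalization and 2280 after centring. They were 994 with no filter, 1788 with an intensity trend, 1087 with the 6 sorted arrays and 1181 without the day term. The 32 calls among the 86 genes moved with them. These were 39 after quantile normalization and after centring, 26 with no filter, 36 with the trend, 30 with the 6 sorted arrays and 21 without the day term. They were 0 to 33 when an array was left out. CD49d+ minus CD73+ gave 8 calls after quantile normalization and after centring, 4 with the trend and 3 without the day term, and 0 to 0 with an array left out. Day 9 minus day 6 gave 3 calls after centring and 0 to 0 with an array left out. The 16 calls of sorted minus unsorted were 6 with no filter, 0 to 7 with an array left out, and 22, 21, 20 and 12 after quantile normalization, centring, trend and no day term. Each fit with an array left out had 2 residual degrees of freedom in place of 3, and the cause of a lost call was not tested. SC4 had at least 2 times the higher control for 55 genes after quantile normalization, centring or averaging of probe sets. Counts of genes without overlap of poised and CD73- arrays (38 and 36 higher, 14 and 15 lower) and of SC4 below all 8 arrays (44 and 43), after quantile normalization and centring, were added after seeing the data. No difference called in poised minus CD73- or sorted minus unsorted changed direction in these settings, and uncalled differences were not followed. No paired analysis was possible because each group has 1 array and no replicate number is shared, while the day term already blocks by day. The floor of 100 limits ratios of dim genes, and the scaling by the authors is unknown.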
